A study of Mus musculus with 11 samples.

Results

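The genes of cholesterol synthesis and of its transcriptional control were compared between cochleae of Atf6-/- and Atf6+/+ mice. They were taken by symbol from the expression tables and comprise 30 of the 18667 genes listed, namely 19 enzymes, 5 genes for the SREBP factors and the proteins that hold them in the ER, 4 genes of sterol transport and fatty acid synthesis and 2 genes of cholesterol efflux. RNA-Seq was done on whole cochleae of 2-month-old mice, with 1 library per individual cochlea, 5 of them Atf6+/+ and 6 Atf6-/-. The sources used here do not say whether 2 cochleae of a group came from the same animal, so p-values measure the spread between these libraries only. All mice were on the C57BL/6J background, whose Cdh23 ahl allele brings age-related hearing loss of its own, and both sexes were used. The Atf6-/- allele ends translation in exon 4, which leaves every cell of these mice without ATF6 protein. A difference therefore cannot be assigned to a cell type of the cochlea. Levels are FPKM, fragments scaled to the length of the transcript and to the mapped fragments of the library, and the files give no counts, so the depth reached by each library is unknown (the study's methods give only a planned depth, the same for every sample).

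Cholesterol is built in the ER from acetyl-CoA through mevalonate, squalene and lanosterol. When ER cholesterol is low, SCAP carries the SREBP precursors to the Golgi apparatus, where the site 1 and site 2 proteases release their transcription factor domains. SREBP2 chiefly drives the cholesterol enzymes and SREBP1 the fatty acid enzymes, while INSIG proteins keep SCAP in the ER when sterols are plentiful. ATF6 is released by the same proteases and has been reported to restrain SREBP2, which makes these genes a place to look for a sterol response when ATF6 is absent. Sterols also matter to this tissue because the myelin of the auditory nerve is rich in cholesterol.

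The cholesterol enzymes, the SREBP genes and their partners were at close levels in both genotypes, and no gene among them passed the test corrected over all genes. In limma, 0 of the 30 genes had an adjusted p under 0.05, where 0.068% of the 16169 genes tested did, and the lowest adjusted p among the 30 was 0.390, for Fdps. A looser rule was adapted from the study, which took genes at a DESeq2 p of at most 0.05 and a fold change over 0.05. As applied here, it takes genes at an unadjusted limma p of at most 0.05 whose log2 fold change exceeds 0.05 in size. By it, 4 of the 30 genes were called, where 9.85% of all genes tested were. All 4 were lower in Atf6-/- cochleae (Acat2, Idi1, Fdps and Msmo1), where 5.37% of all genes tested were lower. At the same rule, 0 of the 30 were higher, where 4.48% of all genes were. The genotypes overlapped in all 30 genes, and 1.25% of all genes tested did not overlap. All 4 lower genes are enzymes of cholesterol synthesis, and their fitted changes ran from -12.7% to -8.03%. The direction across all 30 genes was mixed, with 16 below and 14 above 0 and a median log2 fold change of -0.0099, against -0.013 over all genes tested. That median turned to 0.047 when each library was rescaled to a fixed sum (TPM) and to 0.0020 with median-of-ratios scaling. TPM rescaling also moved the split over all genes, from 724 higher and 868 lower at the looser rule to 1389 higher and 439 lower.

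The targeted gene itself, Atf6, had a mean of 9.52 ± 1.11 FPKM (SD) over the 5 Atf6+/+ libraries and of 4.27 ± 0.285 FPKM (SD) over the 6 Atf6-/- libraries, with no overlap. Its log2 fold change was -1.13 (adjusted p 5.17e-05 in limma). Marker RNA of other tissues also varied between the libraries. A log2 score averaged over the erythroid, neutrophil and B cell genes of bone marrow ran from 3.62 to 5.77 in the Atf6+/+ libraries against 2.15 to 4.02 in the Atf6-/- libraries, with overlap, and 0 of these genes had an adjusted p under 0.05 in limma (lowest 0.362). By the unadjusted rule, 3 of 6 neutrophil genes (S100a8, S100a9 and Ltf), 3 of 5 B cell genes (Cd79a was the one above 1 FPKM on average) and the erythroid genes Hba-a1, Hbb-bt and Alas2 were lower, and the hair cell genes Ocm and Slc26a5, Coch of fibrocytes and Mobp of oligodendrocytes were higher. Summed neutrophil genes reached 2964 FPKM in Atf6+/+ and 1096 FPKM in Atf6-/- libraries, and 0 of the 16 marrow genes were at 0 in any library. The adipocyte genes, 6 in all with each at 0 in some library, summed to between 1.05 and 17.5 FPKM in Atf6+/+ and between 0.26 and 2.32 FPKM in Atf6-/- libraries, with Cfd at 11.57 FPKM in Atf6+/+ 4. All 5 adipocyte genes tested were below 0, and Cfd (log2 fold change -2.20) and Cidec (-1.32, mean under 1 FPKM) were lower by the unadjusted rule. The nerve and glia of the cochlea were plainly present, with 5 Schwann cell genes summing to between 2096 and 2978 FPKM over all libraries, while among 5 neuron genes Stmn2 was lower by the unadjusted rule. None of the 5 macrophage, 5 bone or 5 skeletal muscle genes met that rule. By sign alone, all 5 neuron, 5 macrophage and 5 bone genes were below 0. All 5 oligodendrocyte genes were above 0, with sums of 75.1 to 134 FPKM in Atf6+/+ and 92.0 to 196.5 FPKM in Atf6-/- libraries. No covariate was fitted for these lists. In bulk RNA, fewer cells of a type and less RNA per cell cannot be told apart, and the part that these tissues play in the differences below was tested only through the covariates named there.

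**Figure D1:**
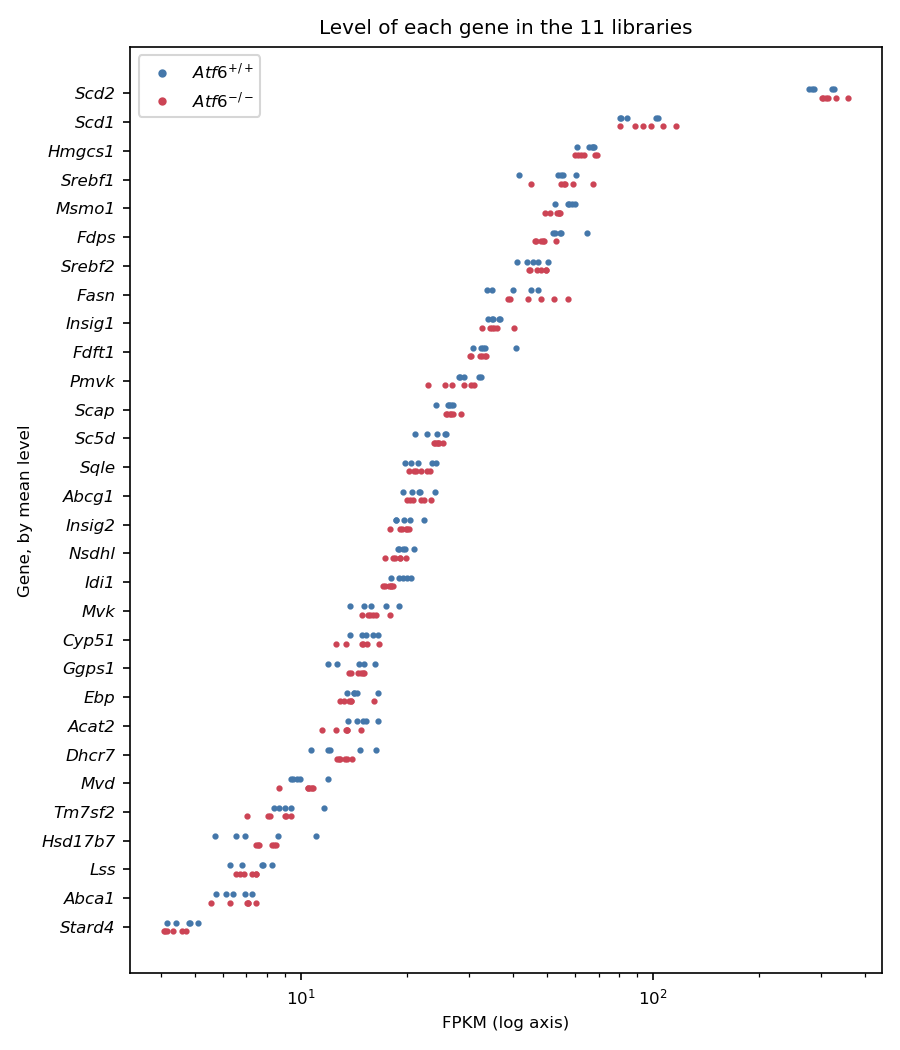
FPKM of each of the 30 genes (log axis) in the 11 libraries, blue for Atf6+/+ and red for Atf6-/-, ordered by mean level. Means run from 4.49 FPKM for Stard4 to 309.8 FPKM for Scd2, and the genotypes overlap in every row.

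All 30 genes were expressed in the cochlea, and all 30 passed the filter of a mean of at least 0.1 FPKM. Scd2, a stearoyl-CoA desaturase, had by far the highest level per length at a mean of 309.8 FPKM over the 11 libraries, followed by its paralog Scd1 at 94.0 FPKM. Among the cholesterol enzymes, Hmgcs1 stood at 64.9 FPKM, Msmo1 at 54.8 FPKM and Fdps at 51.8 FPKM, close to Srebf1 at 55.0 FPKM and Srebf2 at 46.4 FPKM. The lowest enzymes were Lss at 7.21 FPKM, Hsd17b7 at 7.88 FPKM and Tm7sf2 at 8.89 FPKM, and Stard4 at 4.49 FPKM was the lowest gene of all. Between these lay Pmvk at 28.7 FPKM, Sc5d at 24.2 FPKM, Nsdhl at 19.1 FPKM, Mvk at 16.1 FPKM, Cyp51 at 15.0 FPKM, Ggps1 at 14.3 FPKM, Ebp at 14.2 FPKM and Mvd at 10.2 FPKM. The plot of levels by gene shows that neighbours in this order lay within each other's spread over most of the range. For example, Srebf1 ran from 41.69 to 67.25 FPKM and so covered the means of Msmo1, Fdps, Srebf2 and Hmgcs1. Scd2 and Scd1 were clear of the genes below them, since the lowest Scd2 library, at 277.6 FPKM, lay above the highest Scd1 library, at 115.8 FPKM, and the lowest Scd1 library, at 80.30 FPKM, lay above the highest Hmgcs1 library, at 69.07 FPKM. Scd1 and Scd2 are paralogs, and how the expression software divided the reads that they share was not tested.

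The mevalonate steps lead from acetyl-CoA to the isoprenoid diphosphates, and 3 of their 8 genes were lower at the unadjusted rule, where 5.37% of all genes tested were. Fdps makes farnesyl diphosphate, the branch point to sterols, ubiquinone and prenylated proteins. It measured 51.88, 54.69, 54.51, 64.87 and 52.73 FPKM in the Atf6+/+ libraries, and 46.21 (lowest), 48.4 (median) and 52.86 (highest) FPKM in the Atf6-/- libraries. Of the Atf6-/- libraries, 5 of 6 lay below every Atf6+/+ library, and the groups overlapped only through Atf6-/- 3. The means were 55.7 ± 5.24 (SD, n = 5) and 48.5 ± 2.37 FPKM (SD, n = 6), which gave a log2 fold change of -0.20 (95% interval -0.33 to -0.07) with an adjusted p of 0.390 in limma and an exact two-sided permutation p of 0.00866. The highest Atf6+/+ value, in library 4, weighed on the size of the difference, which was -0.14 without that library.

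Acat2, the cytosolic thiolase that condenses acetyl-CoA, opens the pathway. It measured 14.46, 15.32, 13.59, 16.60 and 14.99 FPKM in the Atf6+/+ libraries, and 11.51 (lowest), 13.5 (median) and 14.81 (highest) FPKM in the Atf6-/- libraries. As for Fdps, 5 of 6 Atf6-/- libraries were below the lowest Atf6+/+ library and Atf6-/- 3 was the exception. The log2 fold change was -0.18 (95% interval -0.33 to -0.03), with an adjusted p of 0.454 in limma and an exact permutation p of 0.0216. Without Atf6+/+ 4 the log2 fold change was -0.14 and its unadjusted limma p was 0.0598.

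Idi1, the isomerase that turns isopentenyl into dimethylallyl diphosphate, spread least of the 4 lower genes among the Atf6-/- libraries. It measured 20.02, 19.48, 20.57, 18.05 and 18.98 FPKM in the Atf6+/+ libraries, and 17.13 (lowest), 17.9 (median) and 18.30 (highest) FPKM in the Atf6-/- libraries. The overlap rested on Atf6+/+ 4, the lowest of its group. The means were 19.4 ± 0.969 (SD, n = 5) and 17.8 ± 0.468 FPKM (SD, n = 6), which gave a log2 fold change of -0.13 (95% interval -0.22 to -0.03), with an adjusted p of 0.415 in limma and an exact permutation p of 0.00649.

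The other mevalonate enzymes had wider or smaller differences. Hmgcs1 makes HMG-CoA and is among the genes most responsive to SREBP2. It measured 68.10, 66.91, 65.61, 67.63 and 60.83 FPKM in the Atf6+/+ libraries, and 60.08 (lowest), 63.0 (median) and 69.07 (highest) FPKM in the Atf6-/- libraries. Its groups covered the same range, with a log2 fold change of -0.04 (95% interval -0.15 to 0.07, adjusted p 0.807 in limma), and the sign turned to 0.02 under TPM rescaling. Leaving out each library gave -0.07 (without Atf6+/+ 5) to -0.02 (without Atf6-/- 2). The log2 fold changes were -0.12 for Pmvk (phosphomevalonate kinase), -0.01 for Mvk (mevalonate kinase), 0.03 for Mvd (mevalonate diphosphate decarboxylase) and 0.05 for Ggps1 (geranylgeranyl diphosphate synthase), with adjusted p from 0.607 to 0.972. Pmvk was at -0.07 without Atf6-/- 5 and at -0.03 with a log2 score of the adipocyte genes as a covariate in the fit. Over the 8 mevalonate genes the median log2 fold change was -0.08, with 6 below 0, and under TPM rescaling it was -0.02 with 4 below 0. That rescaling shifted all genes together, and the median over all genes tested went from -0.013 to 0.043.

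**Figure D2:**
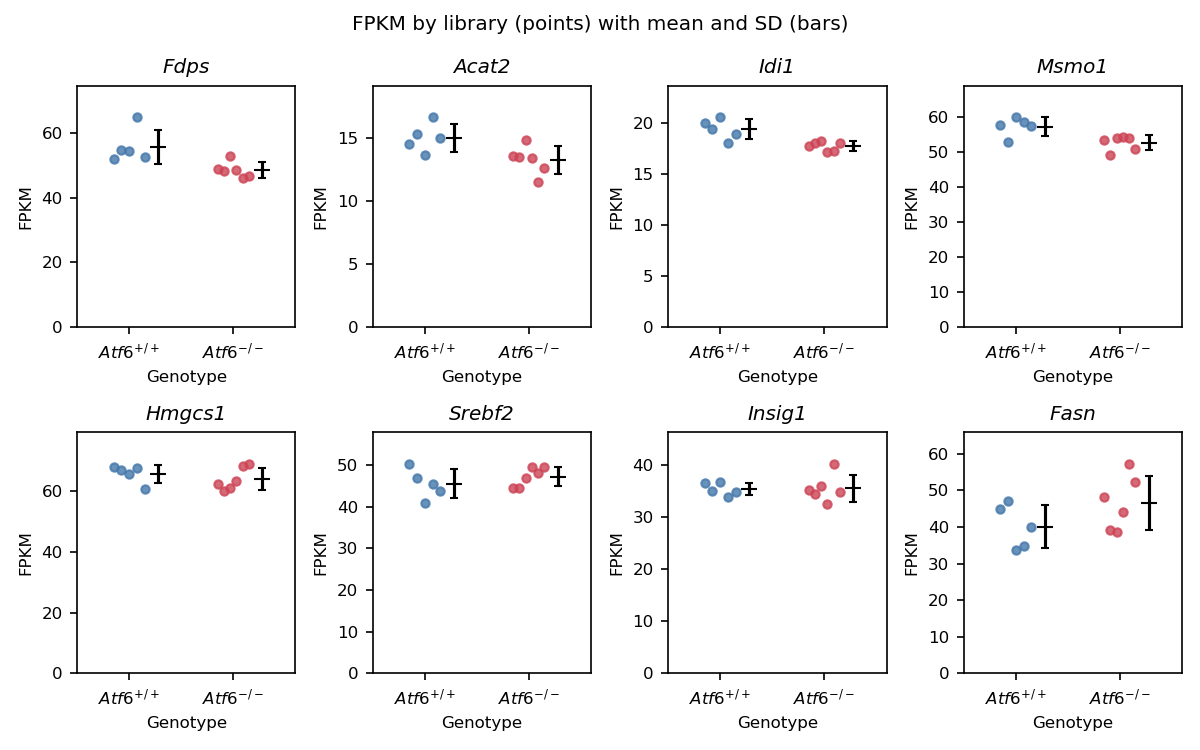
FPKM in each library (points; blue, Atf6+/+; red, Atf6-/-) with the mean and SD of each group (black bars), for 4 enzymes lower at the unadjusted rule (top row) and for Hmgcs1, Srebf2, Insig1 and Fasn (bottom row). Each vertical axis starts at 0, and in every panel the ranges of the genotypes overlap.

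The squalene steps, from farnesyl diphosphate to lanosterol, held 3 genes, of which 0 met either rule. Fdft1, which joins farnesyl units into squalene, ran from 30.89 to 40.73 FPKM in the Atf6+/+ group and from 30.23 to 33.54 FPKM in the other. Its log2 fold change of -0.08 (95% interval -0.22 to 0.06) was -0.01 without Atf6+/+ 4, the highest library. Sqle, the squalene epoxidase that is a later control point of the pathway, was at 21.9 ± 1.91 FPKM (SD, n = 5) and 21.8 ± 1.09 FPKM (SD, n = 6). Lss, which closes the ring to lanosterol, had a log2 fold change of -0.06 (95% interval -0.23 to 0.11), from -0.11 without Atf6+/+ 5 to -0.02 without Atf6+/+ 4.

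Among the 8 enzymes after lanosterol, only Msmo1 was lower at the unadjusted rule. Msmo1, the C4-methyl sterol oxidase, measured 57.77, 52.78, 59.94, 58.67 and 57.40 FPKM in the Atf6+/+ libraries, and 49.18 (lowest), 53.8 (median) and 54.42 (highest) FPKM in the Atf6-/- libraries. All 6 Atf6-/- libraries lay below 4 of the 5 Atf6+/+ libraries, and the overlap came from Atf6+/+ 2 alone. The log2 fold change was -0.12 (95% interval -0.22 to -0.02), with an adjusted p of 0.435 in limma and an exact permutation p of 0.0238. Nsdhl, which works with Msmo1 in the removal of the C4 methyl groups, had a log2 fold change of -0.07 (adjusted p 0.607 in limma), and Hsd17b7, the last member of that enzyme complex listed here, had 0.08 (adjusted p 0.875).

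Hsd17b7 varied most of the enzymes within the Atf6+/+ libraries, from 5.69 to 11.05 FPKM, against 7.48 to 8.53 FPKM in the Atf6-/- libraries. Dhcr7, which reduces 7-dehydrocholesterol to cholesterol, showed the same inequality of spread, with 10.70 to 16.34 FPKM in Atf6+/+ and 12.66 to 13.98 FPKM in Atf6-/- libraries and a log2 fold change of 0.02, which was 0.21 with the marrow score as a covariate and 0.14 with the adipocyte score. Cyp51 (lanosterol demethylase), Tm7sf2 (sterol C14 reductase), Ebp (sterol isomerase) and Sc5d (sterol C5 desaturase) had log2 fold changes of -0.07, -0.15, -0.06 and 0.04, with adjusted p from 0.592 to 0.840. The value of Tm7sf2 was -0.07 without Atf6+/+ 4 and -0.02 with the adipocyte score as a covariate, and that of Cyp51 ran from -0.10 without Atf6-/- 4 to -0.02 without Atf6-/- 5. Exons of Cyp51 overlap those of Akap9 on the opposite strand, those of Fdft1 overlap Ctsb on the opposite strand, and those of Tm7sf2 overlap Vps51 on the same strand. Among the lower genes, Fdps overlaps Gm43738 on the same strand and Idi1 overlaps Gm48574 on the opposite strand, and neither of these neighbours was among the genes tested. How the counting divided reads over shared exons is not given in the sources used here.

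**Figure D3:**
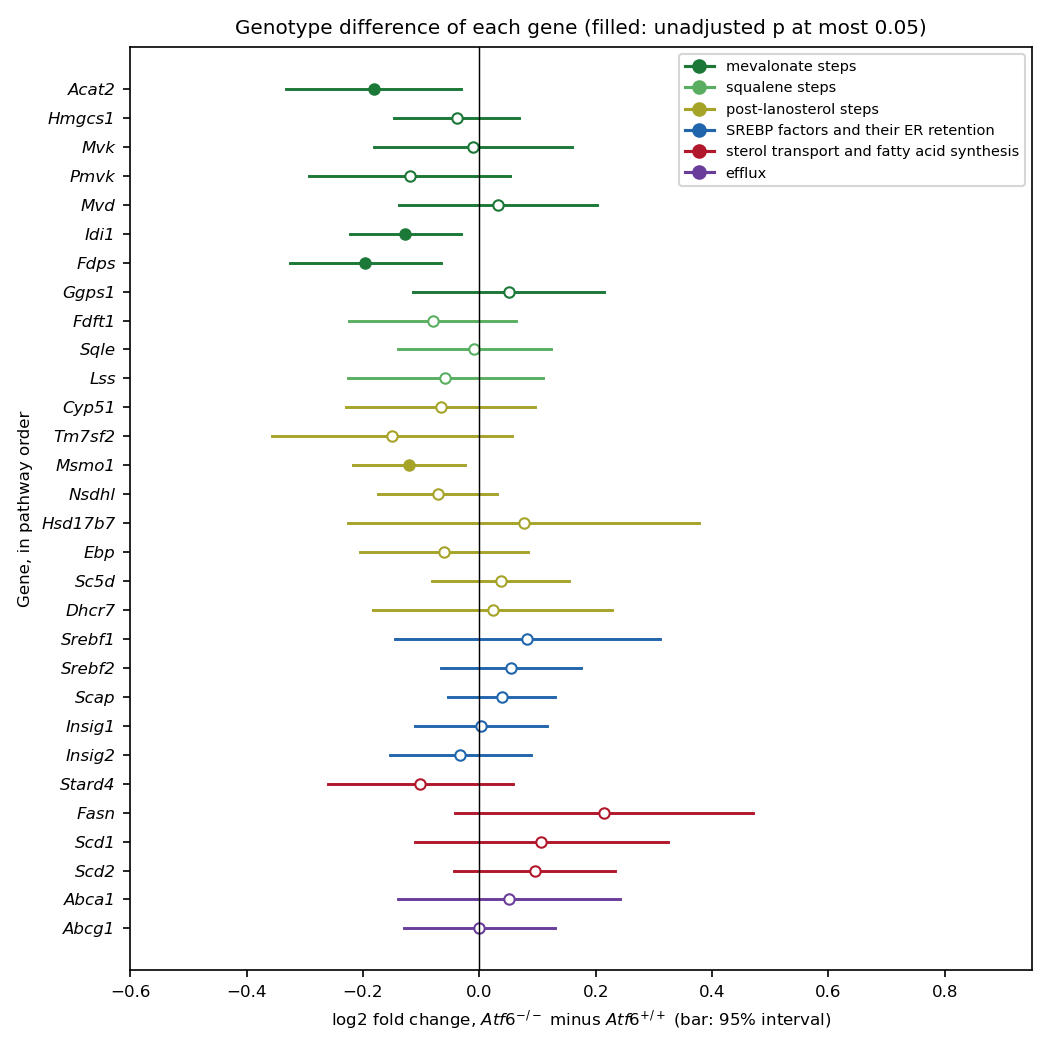
Log2 fold change of each gene, Atf6-/- minus Atf6+/+, on the log2(FPKM + 0.1) scale, with its 95% interval from limma, in pathway order and coloured by role. Filled points are the 4 genes with an unadjusted p of at most 0.05, namely Acat2, Idi1, Fdps and Msmo1, and the interval of every other gene includes 0.

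Over the whole route to cholesterol, the 19 enzymes were below 0 in 14 cases and above it in 5, with a median log2 fold change of -0.06. With median-of-ratios scaling 12 were below 0 and the median was -0.05, and under TPM rescaling 11 were below 0 and the median was -0.0038. Over all genes tested, 54.7% were below 0, against 50.6% with median-of-ratios scaling and 37.4% under TPM rescaling. The mean deviation of the 19 enzymes from the Atf6+/+ mean was below 0 in 6 of 6 Atf6-/- libraries, from -0.09 to -0.01, and ran from -0.06 to 0.08 in the Atf6+/+ libraries, so the genotypes overlapped. Atf6+/+ 4 had the highest enzyme mean of all 11 libraries, with 14 of 19 enzymes above the group mean, and it was also the library with the highest adipocyte score (0.616 on the log2 scale, where the others ran from -2.87 to -0.906). Without it the median over the enzymes was -0.03. The map of levels by library shows this column, in which Acat2, Mvk, Pmvk, Mvd, Fdps, Fdft1, Lss, Tm7sf2, Nsdhl and Dhcr7 were each at their highest of the 11 libraries. With the adipocyte score as a covariate, an alternative chosen after seeing the data, Idi1 (-0.16, unadjusted limma p 0.00349) and Fdps (-0.12, 0.0462) remained at the unadjusted rule. Acat2 (-0.11, 0.145) and Msmo1 (-0.11, 0.0572) did not.

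With the bone marrow score as a covariate, Acat2 alone stayed at the unadjusted rule, with a log2 fold change of -0.23, while Fdps was at -0.17 (unadjusted limma p 0.0626), Idi1 at -0.13 (0.0686) and Msmo1 at -0.08 (0.195). Without the covariate Acat2, Fdps and Idi1 were at -0.18, -0.20 and -0.13 on the log2 scale and Msmo1 at -0.12. The score differed between the genotypes, so the covariate also widened the intervals, and over all genes those at the unadjusted rule went from 724 higher and 868 lower to 327 higher and 508 lower. Under TPM rescaling Fdps stayed at the unadjusted rule (-0.14) and the other 3 did not. There Acat2 was at -0.13 (unadjusted limma p 0.0719), Idi1 at -0.07 (0.272) and Msmo1 at -0.06 (0.225).

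**Figure D4:**
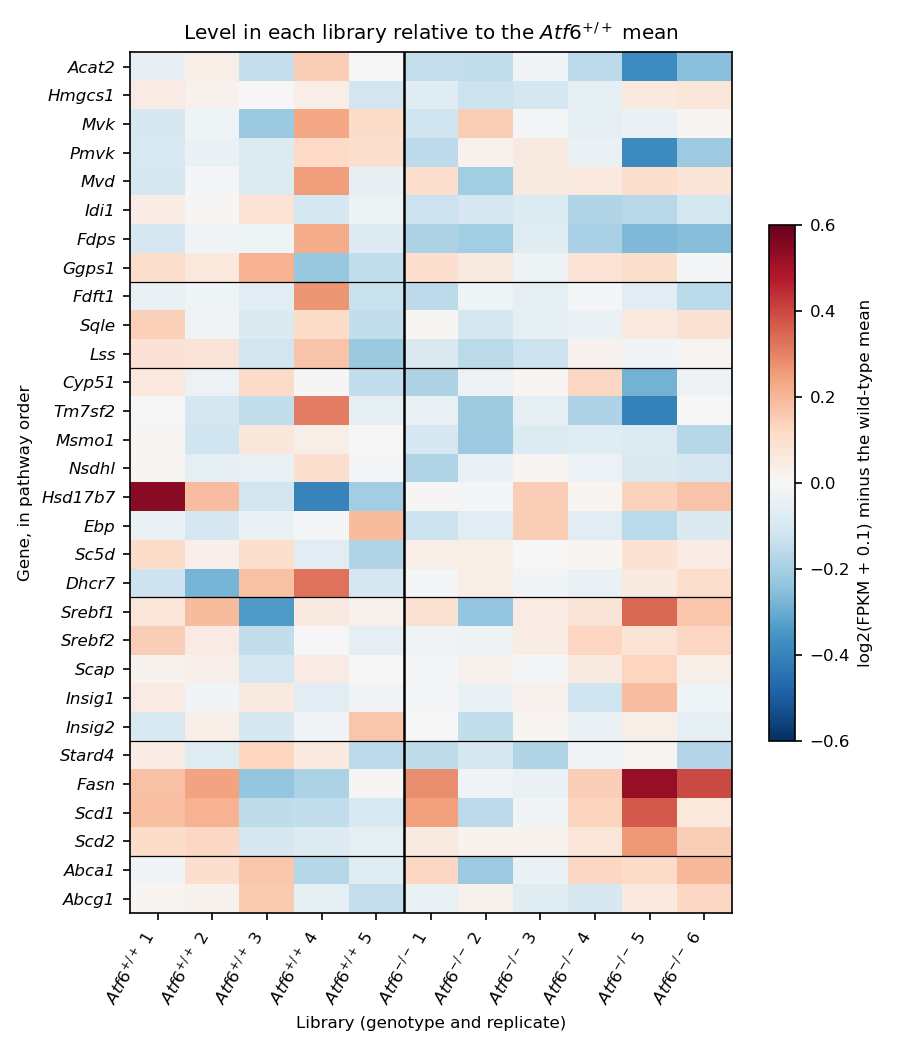
Level of each gene (rows, in pathway order) in each library (columns; 5 Atf6+/+ left of the vertical line, 6 Atf6-/- right of it) as log2(FPKM + 0.1) minus the Atf6+/+ mean, blue below and red above it. Atf6+/+ 4 is red for most enzymes, and Atf6-/- 5 is the reddest column for Srebf1, Insig1, Fasn, Scd1 and Scd2.

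Promoter sequence was shown for the lower enzymes that had an entry and for Hmgcs1 and Fasn, the classical SREBP2 and SREBP1 targets of the list. Exact matches to a few short letter strings were marked in it. RefSeq promoters on GRCm38.p6 matched 23 of the 30 genes, with 31 windows in all from 250 bases before to 50 bases after a start site. Fdps, Fdft1, Sqle, Stard4, Scd1, Scd2 and Abcg1 had no entry. The 250 bases upstream of the start are given 5′ to 3′ on the gene's strand. Capitals mark CCAAT or its reverse complement ATTGG (the box bound by NF-Y, a partner of SREBP), TCACNCCAC (the core of the sterol regulatory element) and CACCCCAC (a shorter form that lies within TCACCCCAC).
Hmgcs1, chr13:119690101-119690350, plus strand: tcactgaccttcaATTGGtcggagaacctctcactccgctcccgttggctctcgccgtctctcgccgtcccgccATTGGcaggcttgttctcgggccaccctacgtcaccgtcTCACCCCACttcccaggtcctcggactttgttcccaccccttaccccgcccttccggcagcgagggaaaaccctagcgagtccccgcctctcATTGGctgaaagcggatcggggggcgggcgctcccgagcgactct
Acat2, chr17:12960726-12960975, minus strand: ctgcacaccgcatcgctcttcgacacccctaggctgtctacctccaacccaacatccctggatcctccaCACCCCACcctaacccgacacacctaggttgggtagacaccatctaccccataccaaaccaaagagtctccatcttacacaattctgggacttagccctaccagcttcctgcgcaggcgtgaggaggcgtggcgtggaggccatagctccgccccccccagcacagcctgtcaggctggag
Idi1, chr13:8885356-8885605, plus strand: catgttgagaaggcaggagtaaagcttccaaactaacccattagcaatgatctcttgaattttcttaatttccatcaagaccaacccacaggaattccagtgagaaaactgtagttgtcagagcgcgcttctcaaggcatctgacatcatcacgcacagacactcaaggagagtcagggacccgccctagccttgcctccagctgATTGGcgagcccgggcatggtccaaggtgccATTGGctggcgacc
Msmo1, chr8:64733579-64733828, minus strand: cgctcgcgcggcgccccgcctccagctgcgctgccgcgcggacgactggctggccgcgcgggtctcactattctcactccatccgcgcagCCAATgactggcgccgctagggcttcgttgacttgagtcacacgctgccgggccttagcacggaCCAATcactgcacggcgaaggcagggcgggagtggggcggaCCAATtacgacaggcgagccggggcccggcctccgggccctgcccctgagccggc
Fasn, chr11:120824548-120824797, minus strand: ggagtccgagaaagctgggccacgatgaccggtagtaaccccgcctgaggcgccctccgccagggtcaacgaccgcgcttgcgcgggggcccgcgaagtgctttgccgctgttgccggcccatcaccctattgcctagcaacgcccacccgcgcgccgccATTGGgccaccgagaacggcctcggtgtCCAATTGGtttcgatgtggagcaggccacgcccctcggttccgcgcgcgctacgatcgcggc

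The NF-Y box CCAAT was the letter string that most of these promoters shared. Searched on both strands over the whole windows, it was found in 20 of the 23 genes (87%), against 41.1% of the 27025 genes with a promoter entry and 42.6% of the tested genes among them. TCACNCCAC was found in 1 of 23 genes, Hmgcs1, with its first base at -137 from the start, against 1.44% of all genes. CACCCCAC was found in 2 of 23, Hmgcs1 and Acat2 (at -181), against 3.3% of all genes, and the Hmgcs1 match is the same site as its TCACNCCAC match. CACGTG, an E-box that SREBP1 can also bind, was found in 6 of 23 genes (Abca1, Dhcr7, Hsd17b7, Insig1, Sc5d and Scap), against 8.09% of all genes. The ATF6 site cores TGACGTGG and TGACGTG were found in 0 of 23, against 0.714% and 2.22% of all genes. Of the lower enzymes with an entry, Idi1 and Msmo1 held CCAAT boxes (2 and 3 of them) and Acat2 held none. In Fasn, CCAAT and ATTGG overlap at 1 place and are printed as 1 run of capitals. These matches describe letters in a fixed window and were not tested against the expression values. Only exact strings were searched, so a promoter without a match may still hold a site that departs from them.

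The genes of the SREBP factors and their retention in the ER came next, and 0 of the 5 met either rule. Srebf2 encodes SREBP2, the factor that ATF6 was reported to restrain, and its gene is itself an SREBP2 target. It measured 50.29, 46.95, 40.97, 45.53 and 43.79 FPKM in the Atf6+/+ libraries, and 44.44 (lowest), 47.5 (median) and 49.58 (highest) FPKM in the Atf6-/- libraries. All Atf6-/- values lay inside the Atf6+/+ range. The log2 fold change was 0.05, with a 95% interval of -0.07 to 0.17 and an adjusted p of 0.753 in limma, and it ran from 0.02 without Atf6+/+ 3 to 0.09 without Atf6+/+ 1.

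Srebf1 encodes SREBP1 and varied more. It measured 55.56, 60.40, 41.69, 54.88 and 53.77 FPKM in the Atf6+/+ libraries, and 45.02 (lowest), 56.0 (median) and 67.25 (highest) FPKM in the Atf6-/- libraries. The lowest of all was Atf6+/+ 3, which had the highest marrow score, and the highest was Atf6-/- 5. The log2 fold change of 0.08 (95% interval -0.15 to 0.31, adjusted p 0.806 in limma) was -0.0029 without Atf6+/+ 3 and -0.07 with the marrow covariate. The tables do not separate the SREBP1a and SREBP1c transcripts, and Srebf1 shares exon sequence with Rai1 on the opposite strand.

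Scap, the escort that carries SREBPs to the Golgi apparatus, had the narrowest interval of this group. It measured 26.40, 26.62, 24.21, 26.98 and 26.12 FPKM in the Atf6+/+ libraries, and 25.89 (lowest), 26.6 (median) and 28.52 (highest) FPKM in the Atf6-/- libraries, with a log2 fold change of 0.04 (95% interval -0.05 to 0.13). Leaving out each library gave 0.01 (without Atf6+/+ 3) to 0.05 (without Atf6+/+ 4). Insig1, an anchor of SCAP whose transcript follows SREBP activity closely, measured 36.62, 35.02, 36.72, 33.91 and 34.88 FPKM in the Atf6+/+ libraries, and 32.57 (lowest), 35.0 (median) and 40.25 (highest) FPKM in the Atf6-/- libraries. Its group means were 35.4 ± 1.21 (SD, n = 5) and 35.6 ± 2.57 FPKM (SD, n = 6), and the 95% interval of the fold ran from 0.926 to 1.08. Insig2, the anchor that depends less on SREBP, measured 18.64, 20.38, 18.57, 19.59 and 22.33 FPKM in the Atf6+/+ libraries, and 17.92 (lowest), 19.6 (median) and 20.32 (highest) FPKM in the Atf6-/- libraries, with a log2 fold change of -0.03 (0.02 under TPM rescaling). The genotypes overlapped in each of the 5 genes.

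The fatty acid genes of the SREBP1 arm had the highest fold changes of the 30, all inside the spread between libraries. Fasn, the fatty acid synthase, measured 44.88, 47.00, 33.84, 34.86 and 39.95 FPKM in the Atf6+/+ libraries, and 38.63 (lowest), 46.1 (median) and 57.22 (highest) FPKM in the Atf6-/- libraries. Of the Atf6-/- libraries, 1, 5 and 6 were above every Atf6+/+ library, and 2, 3 and 4 were within the Atf6+/+ range. The means were 40.1 ± 5.86 (SD, n = 5) and 46.6 ± 7.37 FPKM (SD, n = 6), which gave a log2 fold change of 0.21 (95% interval -0.04 to 0.47) with an adjusted p of 0.555 in limma and an exact permutation p of 0.147. It came to the unadjusted rule without Atf6+/+ 2 (0.27), without Atf6-/- 3 (0.26) and with the Schwann cell score as a covariate (0.25), and stood at 0.05 with the marrow covariate and 0.10 with the adipocyte covariate. Leaving out each library gave 0.15 (without Atf6-/- 5) to 0.27, with 0.16 without Atf6+/+ 3 and 0.17 without Atf6+/+ 4.

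Scd1 and Scd2 put the double bond into stearoyl-CoA. Scd1 measured 101.6, 103.5, 80.68, 81.02 and 84.27 FPKM in the Atf6+/+ libraries, and 80.30 (lowest), 96.1 (median) and 115.8 (highest) FPKM in the Atf6-/- libraries. Scd2 measured 321.4, 325.3, 277.6, 282.6 and 286.5 FPKM in the Atf6+/+ libraries, and 302.1 (lowest), 311.3 (median) and 356.6 (highest) FPKM in the Atf6-/- libraries. For both, Atf6+/+ 1 and 2 were well above Atf6+/+ 3, 4 and 5, and Atf6-/- 5 was the highest library. Atf6-/- 5 also had the highest Schwann cell score (6.56 on the log2 scale) and the lowest FPKM sum (462000) of the 11 libraries. The part of these traits in the values of Atf6-/- 5 was not tested. Scd1 and Scd2 had log2 fold changes of 0.11 and 0.10, with adjusted p of 0.726 and 0.610 in limma. With the marrow covariate Scd1 stood at -0.07 and Scd2 at 0.03, with the adipocyte covariate they stood at -0.0085 and 0.04, and without Atf6-/- 5 they stood at 0.05 and 0.06. Without Atf6+/+ 3 or 4 Scd1 was at 0.07. Stard4, a soluble sterol carrier and SREBP2 target, had a log2 fold change of -0.10 (95% interval -0.26 to 0.06, adjusted p 0.639), which was -0.05 under TPM rescaling and -0.02 with the marrow covariate.

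The efflux transporters Abca1 and Abcg1, which load cholesterol onto lipoproteins under the sterol-sensing LXR receptors, did not meet either rule. Abca1 was at 6.50 ± 0.607 FPKM (SD, n = 5) and 6.75 ± 0.692 FPKM (SD, n = 6), with a log2 fold change of 0.05. Leaving out each library gave 0.0080 (without Atf6+/+ 4) to 0.10 (without Atf6-/- 2). Abcg1 was at 21.5 ± 1.66 FPKM (SD, n = 5) and 21.5 ± 1.29 FPKM (SD, n = 6), with a 95% interval of the fold from 0.914 to 1.09.

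The 95% intervals bound the size of the difference for each gene. For 22 of the 30 genes the interval of the fold between genotypes lay within 1.2-fold in both directions, for 29 within 1.3-fold and for all 30 within 1.4-fold. Over the 19 enzymes the bounds ran from 0.782-fold to 1.3-fold, with the lowest bound in Tm7sf2 and the highest in Hsd17b7. The highest bound over all 30 was 1.48-fold under TPM rescaling and 1.41-fold with median-of-ratios scaling. Srebf2, Insig1 and Hmgcs1 are commonly read as a measure of SREBP2 activity. In the main fit their bounds were 0.955-fold to 1.13-fold, 0.926-fold to 1.08-fold and 0.904-fold to 1.05-fold. These bounds depend on the scaling, since under TPM rescaling the log2 fold changes of these genes were 0.11, 0.06 and 0.02. The plot of fold changes by pathway step shows the intervals of the main fit side by side. They hold for RNA of the whole cochlea, and a change confined to a rare cell type or to protein processing would not be seen in them.

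The levels of Srebf1 and Srebf2 were set against those of the other genes across the 11 libraries, on the log2(FPKM + 0.1) scale. These relations were chosen after values of these genes had been seen, over 57 pairs of Srebf1 or Srebf2 with the other members. Pearson's r between Srebf1 and Fasn was 0.797 (permutation p 0.00287, adjusted 0.0818) and Spearman's rho was 0.882 (permutation p 0.00065, adjusted 0.0185). For Srebf1 and Scd1, r was 0.789 (permutation p 0.00138, adjusted 0.0787) and rho 0.882 (permutation p 0.00052, adjusted 0.0185), and for Srebf1 and Scd2, r was 0.768 (permutation p 0.0061, adjusted 0.116) and rho 0.873 (permutation p 0.00098, adjusted 0.0186). Of the 57 pairs, 3 passed the adjustment by rho, 0 by r and 0 by both. Srebf1 with Scap, which did not pass, had an r of 0.781 (permutation p 0.00911, adjusted 0.119) and a rho of 0.591 (permutation p 0.0619, adjusted 0.207). Srebf2 had its highest r with Scd2, at 0.730 (permutation p 0.0105, adjusted 0.119), and its highest rho with Hsd17b7, at 0.764 (permutation p 0.00866, adjusted 0.0947). For Srebf1 with the 19 enzymes, r ran from -0.542 (Cyp51) to 0.578 (Mvd), with 0.46 for Hmgcs1 and 0.523 for Sqle. Their rho ran from -0.755 (Ebp) to 0.636 (Hmgcs1), the lowest adjusted permutation p was 0.302 for r and 0.0947 for rho, and no test compared the enzymes with the fatty acid genes.

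Without the libraries farthest from the median of Srebf1 on the log2 scale, Atf6+/+ 3 and Atf6-/- 2, r was 0.821 for Fasn, 0.739 for Scd1 and 0.880 for Scd2. With genotype means removed, r was 0.803, 0.776 and 0.768, and after the marrow score was regressed out of both genes in place of genotype, r was 0.722, 0.711 and 0.685. The same step gave 0.738 for Hmgcs1, 0.646 for Lss and 0.627 for Mvd. Srebf1 with Srebf2 had an r of 0.71 (permutation p 0.0147, adjusted 0.140) and a rho of 0.664 (permutation p 0.0309, adjusted 0.196), and r was 0.318 without the same 2 libraries, so that relation rested on them, although leaving out extreme values of Srebf1 also narrows its range. With genotype means removed this r was 0.690, and after the marrow score it was 0.670. For Srebf1 with Fdps, r was -0.227 (permutation p 0.482, adjusted 0.763) and rho -0.364 (permutation p 0.272, adjusted 0.553). Cell composition, depth and handling are shared by all genes of a library, and their part in these relations was not tested beyond the marrow score.

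**Figure D5:**
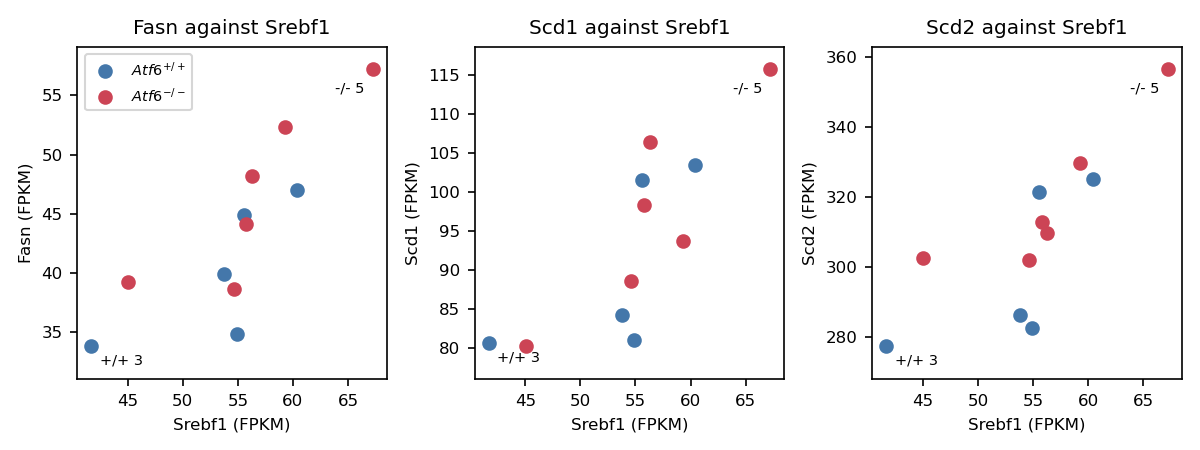
FPKM of Fasn, Scd1 and Scd2 (vertical axes, not starting at 0) against FPKM of Srebf1 (horizontal axis) in the 11 libraries, blue for Atf6+/+ and red for Atf6-/-. Values of both genotypes go up with Srebf1, with Atf6+/+ 3 at the low end and Atf6-/- 5 at the high end of Srebf1.

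Another 51 genes of the pathway, in 5 lists drawn from general knowledge, were counted in the same way. Of these, 0 had an adjusted p under 0.05 in limma, 2 were higher (4.48% of all genes tested were) and 1 was lower (5.37% of all), and their median log2 fold change was 0.0078. Mlxipl, which encodes ChREBP, the carbohydrate-responsive partner of SREBP1 in fat synthesis, was at 9.25 ± 0.477 FPKM (SD, n = 5) and 10.7 ± 0.75 FPKM (SD, n = 6). Its log2 fold change was 0.21 with an adjusted p of 0.368 in limma, and it was the only one of the 51 whose groups did not overlap (1.25% of all genes tested), with Atf6+/+ libraries up to 9.83 FPKM and Atf6-/- libraries from 9.94 FPKM. Vldlr, a lipoprotein receptor, was at 3.96 ± 0.791 FPKM and 5.01 ± 0.737 FPKM (log2 fold change 0.35, adjusted p 0.480), and Acss2, which makes acetyl-CoA from acetate, was at 47.7 ± 2.86 FPKM and 43.7 ± 2.98 FPKM (log2 fold change -0.13, adjusted p 0.505).

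By list, 0 of the 9 genes for SREBP processing and degradation met either rule, among them Mbtps1 and Mbtps2, the site 1 and site 2 proteases that cleave both SREBPs and ATF6. Mbtps1 had a log2 fold change of 0.07 and Mbtps2 of -0.04. Of the 11 genes of the isoprenoid branch and sterol electron donors, 0 met either rule, with log2 fold changes from -0.10 for Lbr to 0.16 for Por. The 11 fatty acid genes held Mlxipl (higher) and Acss2 (lower), and Acly and Acaca, the enzymes that feed fatty acid synthase, had 0.05 and -0.01. The 7 LXR factors and targets held 0, and the 13 genes of sterol uptake, esterification and trafficking held Vldlr alone.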

How the data were processed

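Total RNA of each cochlea (RNeasy) went into a strand-specific mRNA library read from both ends on DNBSEQ. The submitters' processing notes name HISAT2 2.0.4, RSEM 1.2.12, DESeq2 1.4.5 and GRCm39. The deposited values are FPKM per gene, computed by the authors with RSEM, rounded to 2 decimals and not scaled to a common sum. They are not counts, and steps of whole reads could not be read from them, so counting error and the depth reached per library are unknown and the precision shown is the spread between libraries.

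Here FPKM of the 11 libraries (WT, n = 5, written Atf6+/+; Atf6 knockout, n = 6, written Atf6-/-) were joined by NCBI gene identifier. Genotype was fitted with limma 3.58.1 (R 4.3.3) on log2(FPKM + 0.1), two-sided, with a mean-variance trend, for the 16169 genes whose mean reached 0.1 FPKM, with Benjamini-Hochberg adjustment over them. A fold change on this scale understates the change of low genes. The script was tested on simulated data. Single genes were also compared by exact two-sided permutation over 462 splits (the smallest p these give is 0.00216), and correlations by 100000 permutations with SciPy 1.17.1. Alternatives were pseudocounts, filters, scalings, a replicate block, robust variance, each library left out, and marrow and Schwann cell scores as covariates. An adipocyte covariate was added after seeing the data.

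The 30 genes, the 5 lists of further pathway genes and the 12 cell type lists were chosen with earlier results of these data known. All 30 genes are named with their levels. All Atf6+/+ values and the lowest, median and highest Atf6-/- values are given for genes at the unadjusted rule, the 5 highest genes and the SREBP group, and for Fasn, which was added after its values were seen, and genes of the other lists are named at the unadjusted rule with a mean of at least 1 FPKM, except for 1 gene that is not reported here. Promoters are RefSeq sequences on GRCm38.p6, and no genome of the build used for alignment was used here.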

Additional observations from a re-analysis of the deposited data

Results flagged for a closer look

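Dixon's test for a library far from the rest of its group was run on 60 groups (30 genes in 2 genotypes), and 6 were past its 95% critical value, where chance gives about 1 in 20. Fdps at 64.87 FPKM in Atf6+/+ 4 stood above the other Atf6+/+ libraries (51.88 to 54.69 FPKM), and the log2 fold change without that library was -0.14 (unadjusted limma p 0.00852). Fdft1 at 40.73 FPKM in the same library stood above 30.89 to 33.21 FPKM, and without that value the log2 fold change was -0.01. Mvd at 11.98 FPKM, again in Atf6+/+ 4, stood above 9.35 to 9.98 FPKM. The same library had the highest adipocyte score, whose part in these values was not tested library by library. Mvd was also low in Atf6-/- 2, at 8.69 FPKM against 10.47 to 10.84 FPKM in the other Atf6-/- libraries, and its log2 fold change of 0.03 was 0.09 without the first of these libraries and 0.08 without the second. Ebp was high in Atf6+/+ 5, at 16.56 FPKM against 13.55 to 14.41 FPKM, and in Atf6-/- 3, at 16.08 FPKM against 12.96 to 13.91 FPKM, and its log2 fold change of -0.06 was -0.01 and -0.10 without them.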

How the results depend on the processing

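No alternative brought any of the 30 genes to an adjusted p under 0.05 (lowest 0.279). Over 22 alternatives, the unadjusted rule held for Fdps in 21, Idi1 in 20, Msmo1 in 19 and Acat2 in 18. The 4 lower genes became 1 under TPM rescaling, 1 with the marrow covariate and 2 with the adipocyte covariate, and with the Schwann cell covariate there were 5 lower genes (Pmvk was added, at -0.15) and 1 higher (Fasn). Over all genes, 868 lower and 724 higher became 1183 and 914 with the Schwann cell covariate, 821 and 653 with the adipocyte covariate and 658 and 420 with the replicate block. TPM rescaling moved the median log2 fold change to -0.0038 over the enzymes, -0.023 over the mevalonate steps and -0.0068 over the steps after lanosterol. Of the 51 further genes, the count lower was 0 under TPM rescaling, median-of-ratios scaling and the replicate block, and the count higher was 4 under TPM rescaling. Leaving out each library in turn gave 3 to 4 lower and 0 to 1 higher genes (Fasn, without Atf6+/+ 2 or Atf6-/- 3), and 0 to 2 genes without overlap, namely Msmo1 without Atf6+/+ 2, Idi1 without Atf6+/+ 4 and Fdps and Acat2 without Atf6-/- 3, each time the library that had made the overlap. Over all genes tested, 1.52% to 2.30% did not overlap in these runs. Among the 51 it gave 0 to 1 lower and 1 to 4 higher genes.

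Signs turned for some genes. TPM rescaling and median-of-ratios scaling shift all genes together (their median went from -0.013 to 0.043 and to -0.0016), so these turns follow from construction, and the cause of the other turns was not tested. Under TPM rescaling Hmgcs1 was 0.018, Mvk 0.045, Sqle 0.048 and Insig2 0.024, and with median-of-ratios scaling Mvk was 0.00052 and Sqle 0.0035. With the marrow covariate Cyp51 was 0.052, Hsd17b7 -0.083, Srebf1 -0.067, Insig1 -0.022 and Scd1 -0.066, and with the Schwann cell covariate Sqle was 0.0093. With the adipocyte covariate Mvk was 0.096, Ggps1 -0.068, Sqle 0.0025, Hsd17b7 -0.11, Sc5d -0.022, Insig1 -0.043, Scd1 -0.0085, Abca1 -0.031 and Abcg1 -0.044. Leaving out each library, the ranges that crossed 0 were Mvk -0.067 to 0.047, Ggps1 -0.0067 to 0.10, Sqle -0.045 to 0.027, Hsd17b7 -0.024 to 0.21, Sc5d -0.0081 to 0.065, Dhcr7 -0.047 to 0.10, Srebf1 -0.0029 to 0.15, Insig1 -0.034 to 0.027, Insig2 -0.057 to 0.0095 and Abcg1 -0.035 to 0.040.

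The sources used here do not say whether the replicate numbers pair the libraries. The Atf6+/+ mice were littermate controls, and which libraries came from the same litter is not given. Correlations of same-numbered deviations ran from -0.21 to 0.119, which cannot decide whether animals were paired. With the number as a replicate block Atf6-/- 6 stands alone, Idi1, Fdps and Msmo1 kept the unadjusted rule (3 lower genes), Acat2 did not (-0.17, unadjusted limma p 0.0824), and Abcg1 was -0.025.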
